A study of Bos taurus with 47 samples.

Results

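COL1A1, COL1A2 and COL3A1 are the genes of the main fibrillar collagens of connective tissue, and their transcripts were followed through 47 RNA sequencing libraries of cattle Longissimus muscle. They were taken as 3 of the 27607 genes listed in every count table, by Ensembl identifier: ENSBTAG00000013103 for COL1A1, ENSBTAG00000013472 for COL1A2 and ENSBTAG00000021466 for COL3A1. This pairing of identifiers with symbols was part of the choice of genes and was not checked against an annotation, because the RefSeq gene table used here lists all 3 symbols but carries no Ensembl identifiers. The founders were crossbred Angus heifers (F0) that gained 0.28 kg per day (low gain, LG) or 0.79 kg per day (moderate gain, MG) over the first 84 days of gestation and were managed together afterwards. Their F1 daughters, raised alike, were sampled in the Longissimus thoracis at birth before suckling (8 LG and 8 MG libraries) and at slaughter (8 LG and 7 MG). The F2 fetuses of day 84, whose granddams had been on the LG or MG gain, gave the Longissimus dorsi (8 LG and 8 MG). The protocol text gives 7 LG and 8 MG animals at slaughter, and the sample labels were followed here.

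Fibrillar collagens are secreted as procollagens, trimmed outside the cell and assembled into the fibrils of tendon, bone, skin and the connective tissue sheaths of muscle. Type I collagen is a triple helix in which COL1A1 chains outnumber COL1A2 chains, and it carries most of the tensile load of a fibril. Type III collagen is built from COL3A1 chains alone, is found with type I in the same fibrils of soft tissue, and is known as a prominent collagen of developing and healing tissue and of the fine sheaths around muscle fibres. In muscle these transcripts are made mainly by connective tissue fibroblasts and not by the muscle fibre itself.

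Total counts ran from 13308433 to 32547565 per library. The lowest count of any of the 3 genes was 521, for COL1A1 in birth MG library 21, with a 95% Poisson interval of 477 to 568 for counting error alone, and the highest was 492676, for COL1A2 in fetal MG library 23. Depth was therefore not what limited these values, and the spread between libraries was. Levels are given as CPM, counts scaled to a common library size with edgeR's TMM factor, in the usual CPM unit. The muscle was not checked against marker genes, since no other symbol could be placed on an identifier, and the contribution of fibroblasts, tendon or other connective tissue to a library was not tested. Stage cannot be told apart from generation (F2 against F1), from the labelled muscle region in the fetus, or from the table in which a stage was deposited. In whole muscle, fewer collagen-producing cells and less collagen RNA per cell cannot be told apart either.

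In the fetus all 3 collagens were among the most heavily counted transcripts of the muscle. COL1A1 ran from 1421 CPM (LG library 22) through a median of 6183 to 16277 CPM (MG library 23), COL1A2 from 2118 through 7761 to 19754 CPM in the same libraries, and COL3A1 from 2942 CPM (LG library 22) through 6378 to 9702 CPM (MG library 32). LG library 22 was thus the lowest of the 16 fetuses for every one of the 3 genes, with MG library 20 next for COL1A1. By count, COL1A1 stood among the 10 most heavily counted genes in 11 of 16 fetal libraries, COL1A2 in 13 and COL3A1 in 13, and in MG library 23 COL1A2 took more counts than any other gene (rank 1). Together the 3 genes held 2.98% ± 1.44 of all counts (SD, n = 16), from 1.03% to 6.47%. Fetuses differed widely among themselves, and the type I chains did so more than COL3A1. The highest fetus exceeded the lowest 11.5-fold for COL1A1, 9.33-fold for COL1A2 and 3.30-fold for COL3A1. The SD of log2 CPM within the LG and MG groups was 1.02 for COL1A1, 0.84 for COL1A2 and 0.57 for COL3A1, where the median gene of 11691 genes had 0.54. A spread above that of the median gene was not particular to the fetus. In the same order, the SDs at birth were 0.69, 0.57 and 0.42 beside a median of 0.31. At slaughter they were 0.61, 0.58 and 0.64 beside 0.31, with COL3A1 the most variable of the 3 genes.

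At birth the same transcripts were at a small fraction of the fetal level. COL1A1 ran from 41.6 through a median of 105 to 206 CPM, COL1A2 from 62.6 through 112 to 207 CPM, and COL3A1 from 180 through 331 to 412 CPM. MG library 21 was lowest for all 3 genes, MG library 20 was highest for both type I chains, and LG library 07 was highest for COL3A1. None of the 16 calves overlapped the fetuses. The lowest fetus lay 6.90-fold above the highest calf for COL1A1, 10.2-fold for COL1A2 and 7.14-fold for COL3A1. The share of all genes whose fetal and birth ranges lie apart was not counted, so this separation is not shown to be particular to the collagens. The 3 genes together held 0.0436% ± 0.0133 of counts (SD, n = 16), and none was among the 10 most heavily counted genes in any birth library.

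**Figure D1:**
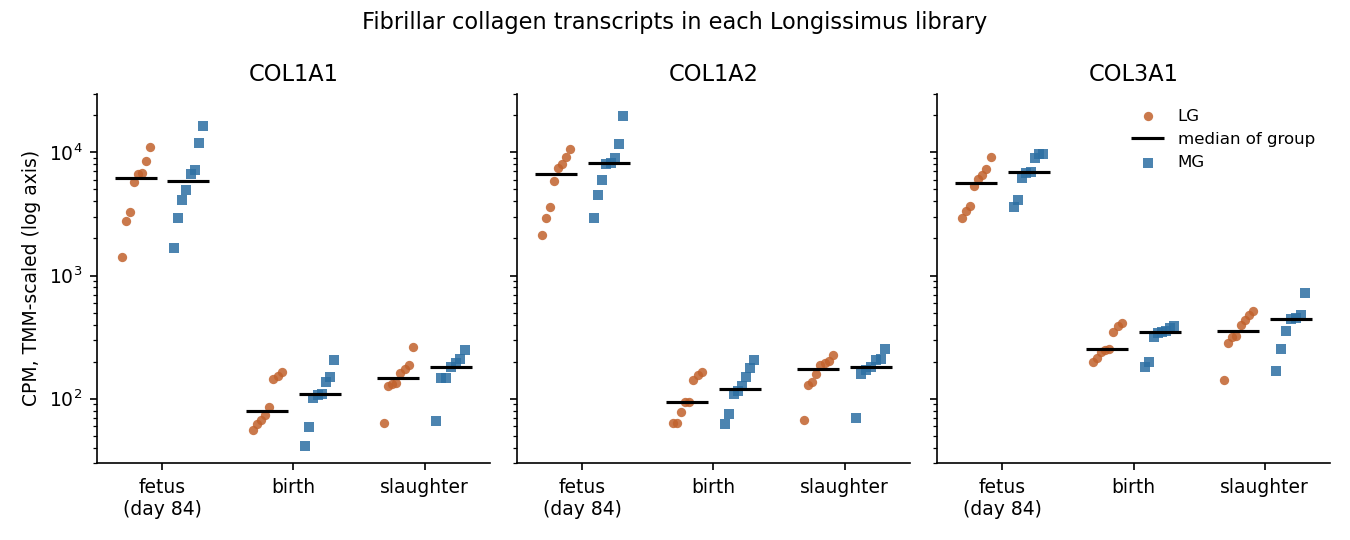
CPM of COL1A1, COL1A2 and COL3A1 (log axis) in each library by stage, with LG libraries as circles, MG libraries as squares and the group median as a bar; points are set side by side in order of value. All 16 fetuses lie above all birth and slaughter libraries for each gene, and the LG and MG points of a stage overlap.

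All 3 genes fell from fetus to birth, COL3A1 less than the type I chains. COL1A1 was 57.3-fold lower at birth (log2 fold change -5.84, SE 0.34, adjusted p = 2.27e-17 by edgeR's quasi-likelihood test with Benjamini-Hochberg adjustment). COL1A2 was 61.2-fold lower (-5.94, SE 0.29, adjusted p = 1.56e-19), and COL3A1 was 20.1-fold lower (-4.33, SE 0.19, adjusted p = 1.01e-20). Calls were common in this comparison: 81.9% of the 14820 genes tested passed an adjusted p of 0.05, with 44% lower and 37.9% higher at birth, so that being called is no mark of the collagens. Their size of change was less common. Only 317 of the tested genes had a lower log2 fold change than COL1A1, 287 a lower one than COL1A2 and 856 a lower one than COL3A1, and the median of the 3 genes was -5.84 beside -0.12 over all genes tested. The size depended on the scaling. TMM factors averaged 1.51 in fetuses, 0.838 at birth and 0.790 at slaughter. With total counts and no TMM factor, a setting chosen after seeing the data, the falls were 105-fold, 113-fold and 37.3-fold, the median of all genes moved to -1.0, and 9331 genes were called lower and 2734 higher in place of 6522 and 5619.

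At slaughter the type I chains were higher than at birth while staying far below the fetus. COL1A1 ran from 63.4 CPM (LG library 02) through a median of 163 to 265 CPM (LG library 36), and COL1A2 ran from 66.9 CPM (LG library 02) through 179 to 251 CPM (MG library 32). COL3A1 ran from 141 CPM (LG library 02) through 393 to 723 CPM (MG library 32). LG library 02 and MG library 23 stood apart at the low end for all 3 genes, at 63.4 and 65.7 CPM of COL1A1 where the next library had 126 CPM. The groups of birth and slaughter overlapped, since 3 of 15 slaughter libraries were above the highest calf for COL1A1, 3 for COL1A2 and 7 for COL3A1. More of them exceeded the birth median: 13 of 15 for COL1A1, 13 for COL1A2 and 9 for COL3A1. The 3 genes held 0.0570% ± 0.0207 of counts (SD, n = 15).

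Against birth, COL1A1 rose 1.54-fold at slaughter (95% interval 1.13 to 2.09, log2 fold change 0.62, SE 0.22, adjusted p = 0.0114 by edgeR). COL1A2 rose 1.47-fold (1.13 to 1.92, log2 fold change 0.56, SE 0.19, adjusted p = 0.00985). COL3A1 was 1.30-fold of its birth level (1.01 to 1.66, log2 fold change 0.37, SE 0.18) and did not pass the threshold, with an adjusted p of 0.0583. So 2 of the 3 genes were called, where 70.2% of 13369 genes were, 37% higher and 33.3% lower, which is no more than the background. The median of the 3 genes was 0.56 and that of all genes 0.05. COL3A1 passed when any of 5 libraries was left out: birth MG 20 (adjusted p = 0.0493), birth LG 25 (0.0398), slaughter LG 02 (0.0182), slaughter MG 23 (0.0254) or slaughter MG 31 (0.0360), with log2 fold changes of 0.25 to 0.44 over all libraries left out in turn, the lowest without slaughter MG 32.

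Whether the type I chains were called depended on the libraries taken. In LG libraries alone the log2 fold change was 0.66 for COL1A1 (adjusted p = 0.0495) and 0.63 for COL1A2 (0.0348), and in MG libraries alone 0.54 (0.123) and 0.44 (0.149), which edgeR did not call. The difference between the LG and MG changes, tested as an interaction in 1 model of all 47 libraries, was 0.05 for COL1A1 and 0.13 for COL1A2, with an edgeR adjusted p of 1.00 each. Only 6 library numbers occur at both stages, and the labels do not say whether a number marks an animal, although a shared number carries the same gain label at each stage. Over the libraries with those numbers, the log2 fold change was 0.09 for COL1A1 (adjusted p = 0.765), 0.12 for COL1A2 (0.654) and -0.08 for COL3A1 (0.697), and for each gene 3 of the 6 numbers had more CPM at slaughter than at birth. These libraries were high among the calves and low among the slaughter animals: COL1A1 averaged 131 CPM at birth in the 6 against 92.8 CPM in the other 10, and 143 CPM at slaughter in the 6 against 175 CPM in the other 9.

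**Figure D2:**
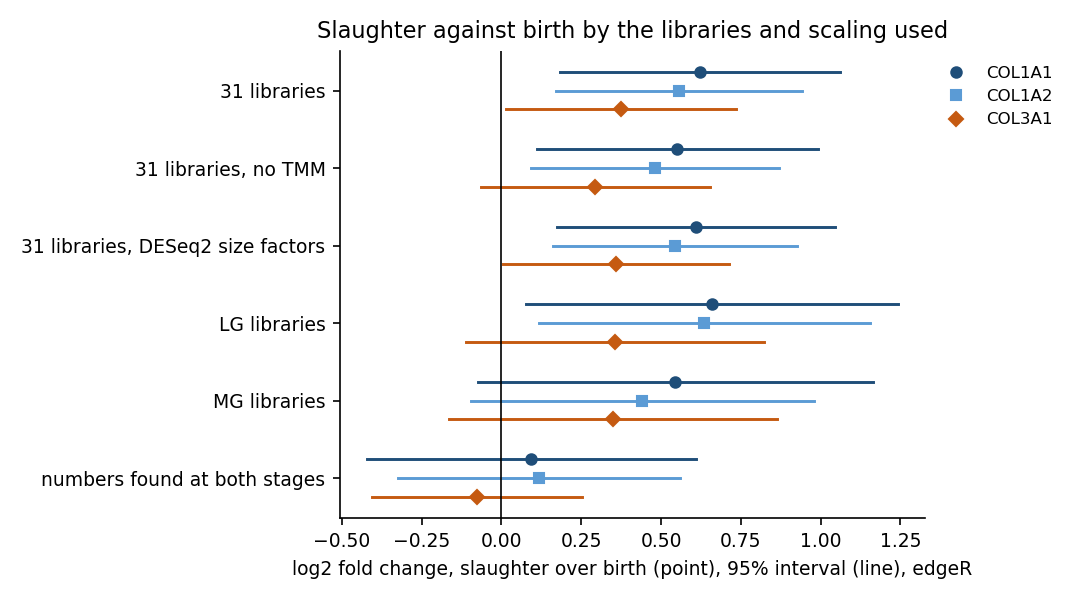
Log2 fold change of slaughter over birth for each collagen (point) with its 95% interval (line), fitted in edgeR over all 31 libraries with TMM, with no TMM or with DESeq2 size factors, over LG or MG libraries alone, and over the libraries whose number is found at both stages. The points for COL1A1 lie between 0.54 and 0.66 in the first 5 settings and at 0.09 in the last.

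Against the fetus, the slaughter libraries were lower in all 3 genes, without overlap. COL1A1 was 37.1-fold lower (log2 fold change -5.21, SE 0.33, adjusted p = 5.48e-16 by edgeR), COL1A2 was 41.4-fold lower (-5.37, SE 0.28, adjusted p = 7.23e-18) and COL3A1 was 15.4-fold lower (-3.95, SE 0.22, adjusted p = 4.35e-17). The lowest fetus was 5.37-fold, 8.43-fold and 4.07-fold above the highest slaughter library, in the same order. Of 14960 genes tested, 83.4% were called, 45% lower and 38.4% higher at slaughter, and the median log2 fold change over all genes was -0.16. Among the genes tested, 493 had a lower log2 fold change than COL1A1, 455 a lower one than COL1A2 and 1013 a lower one than COL3A1. How many of all genes had fetal and slaughter ranges without overlap was not counted. With total counts and no TMM factor the 3 genes were 71.8-fold, 80.6-fold and 30.5-fold lower, the median of all genes was -1.15, and 9493 genes were called lower and 3012 higher in place of 6737 and 5747. These comparisons share libraries, each stage serving in 2 of them, so they are not separate evidence of the low F1 level.

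The balance of type III to type I transcripts was examined as count ratios within a library, which do not depend on depth or scaling. Counts were not divided by transcript length, so a ratio does not rank the 3 genes, and only its change between libraries was compared. The ratio of COL3A1 to COL1A1 counts ran from 0.569 (MG library 39) through a median of 1.13 to 2.38 (MG library 32) in the fetus, from 1.89 through 3.09 to 4.33 at birth, and from 1.75 through 2.42 to 2.92 at slaughter. The ratio of COL3A1 to COL1A2 counts ran from 0.488 through 0.903 to 1.39 in the fetus, from 1.88 through 2.69 to 3.41 at birth, and from 1.5 through 2.24 to 2.88 at slaughter. COL3A1 thus made up more of the collagen counts in both F1 stages than in the fetus, with no overlap for its ratio to COL1A2. How many other pairs of genes had ratios that shifted or lay apart between these stages was not counted. With 81.9% and 83.4% of genes called against the fetus at birth and at slaughter, the shift is not shown to be particular to the collagens. For its ratio to COL1A1, 3 of 16 birth and 7 of 15 slaughter libraries lay under the highest fetus. COL3A1 had the most counts of the 3 genes in 16 of 16 birth and 15 of 15 slaughter libraries, but in 7 of 16 fetal ones, and it had the fewest in 6 fetuses.

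The geometric mean of the COL3A1 to COL1A1 ratio was 1.12 in the fetus and 2.99 at birth, a difference of 1.41 on the log2 scale (SE 0.17, adjusted p = 4.5e-05). Its ratio to COL1A2 went from 0.909 to 2.66, a difference of 1.55 (SE 0.11, adjusted p = 4.5e-05). These p-values come from two-sided permutation tests with 100000 resamples, adjusted over 18 ratio comparisons, and 1e-05 before adjustment is the smallest they can give. From birth to slaughter the ratios moved back in part. COL3A1 to COL1A1 was 2.34 at slaughter, lower than at birth by a log2 difference of -0.35 (SE 0.09, permutation test, adjusted p = 0.00374), and COL3A1 to COL1A2 was 2.22, lower by -0.26 (SE 0.08, adjusted p = 0.00711). Both remained above the fetus at slaughter, by 1.06 (SE 0.16) and 1.29 (SE 0.11) on the log2 scale, each with a permutation adjusted p of 4.5e-05. The ratio shifts follow from the unequal fold changes of the 3 genes given above and are not separate evidence.

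The ratio between the chains of type I collagen varied less. COL1A1 to COL1A2 had a geometric mean of 0.809 in the fetus, 0.891 at birth and 0.949 at slaughter, and COL1A2 had more counts than COL1A1 in 12 of 16, 13 of 16 and 12 of 15 libraries. No pair of stages differed past the adjusted threshold: birth against fetus gave a log2 difference of 0.14 (SE 0.10, permutation test, adjusted p = 0.307), slaughter against birth 0.09 (SE 0.05, 0.222) and slaughter against fetus 0.23 (SE 0.09, 0.0506). The last passed when any of 7 libraries was left out, with adjusted permutation p-values of 0.0483 without slaughter LG 11, 0.0170 without fetal LG 02, 0.0141 without LG 14, 0.0281 without LG 29, 0.0443 without LG 36, 0.0300 without MG 39 and 0.0467 without LG 41. For these, only the p-value of this comparison was computed anew, and the adjustment kept the other ratio p-values from all libraries. The ratio narrowed in range with stage, from 0.497 to 1.17 in the fetus, 0.665 to 1.06 at birth and 0.854 to 1.16 at slaughter.

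**Figure D3:**
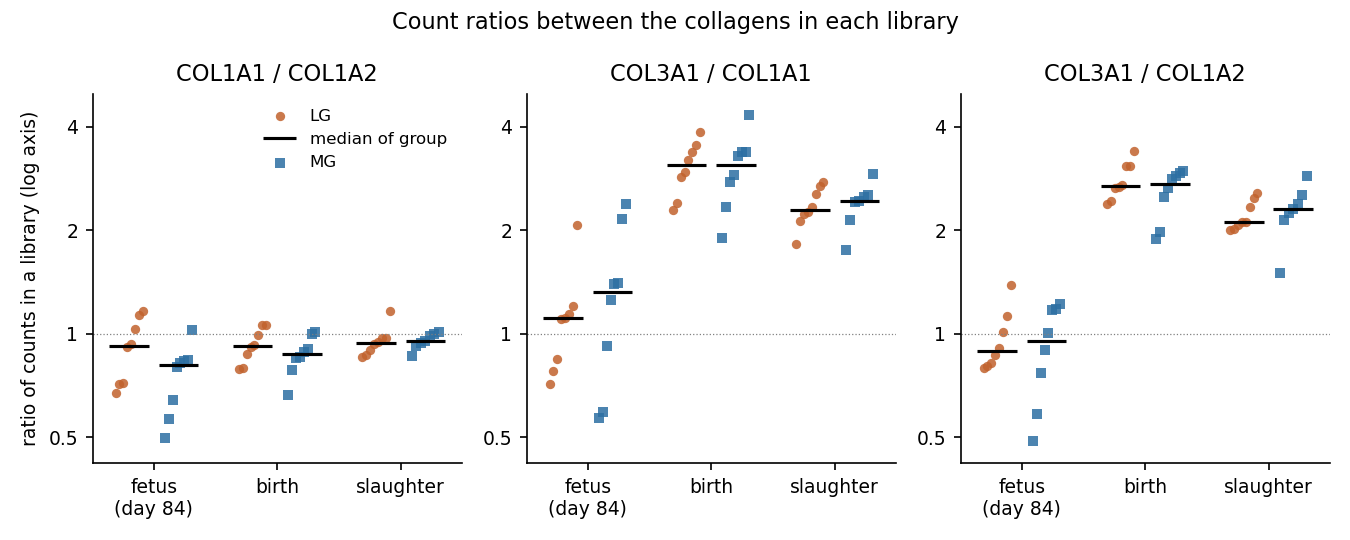
Ratios of counts between the collagens in each library (log axis), by stage and gain, with the group median as a bar and a dotted line at 1. COL3A1 to COL1A2 lies at 1.39 or lower in all fetuses and at 1.5 or higher in all F1 libraries, while COL1A1 to COL1A2 overlaps between stages.

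Within the fetuses the balance also varied with how much collagen RNA a library held. The fetuses with the least COL1A1, LG 22 and MG 20, had COL3A1 to COL1A1 ratios of 2.07 and 2.16. Those with the most, MG 23, MG 39 and LG 29, had ratios of 0.592, 0.569 and 0.843. MG library 32 departed from this order, with the highest ratio of all, 2.38, at 4077 CPM of COL1A1 and the highest COL3A1 level of any fetus. Its COL1A1 to COL1A2 ratio of 0.497 was the lowest of the 47 libraries. At birth the same ordering was seen at the ends, as MG library 21, lowest for COL1A1, had the highest COL3A1 to COL1A1 ratio at 4.33, and MG library 20, highest for COL1A1, had the lowest at 1.89. Slaughter was mixed. LG library 36, highest for COL1A1 at 265 CPM, had a low ratio of 1.82, and MG library 23, at 65.7 CPM, had 2.54, above the stage median of 2.42. Against the ordering, LG library 02, lowest for COL1A1, had a ratio of 2.23, under that median. MG library 32, with 247 CPM of COL1A1, had the highest ratio at 2.92. The lowest ratio at slaughter, 1.75, was that of MG library 31, whose 146 CPM of COL1A1 lay under the stage median of 163 CPM. Because the ratio has COL1A1 in its denominator, it falls with COL1A1 by construction wherever COL3A1 varies less, and no test was made of this relation.

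The 3 genes varied together from library to library within a stage. In the fetus, log2 CPM of COL1A1 and COL1A2 correlated with Pearson's r = 0.939 and Spearman's rho = 0.862 (n = 16), COL1A2 and COL3A1 with r = 0.916 and rho = 0.888, and COL1A1 and COL3A1 with r = 0.809 and rho = 0.674. At birth r was 0.970, 0.946 and 0.95 for the same pairs, and rho was 0.95, 0.938 and 0.912 (n = 16). The loosest pair by either measure was thus COL1A1 with COL3A1 in the fetus, and every other pair at these stages had a Pearson's r above 0.9. At slaughter LG library 02 and MG library 23 formed a low pair of their own, and over the other 13 libraries r was 0.943, 0.843 and 0.844. Leaving out the 2 libraries farthest from the median gave 0.901, 0.871 and 0.697 in the fetus and 0.965, 0.947 and 0.948 at birth. The permutation p-values over these 2 stages were at most 0.00027 for r and 0.00521 for rho after Benjamini-Hochberg adjustment over 9 pairs. The values of a pair come from the same library and share its scaling.

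**Figure D4:**
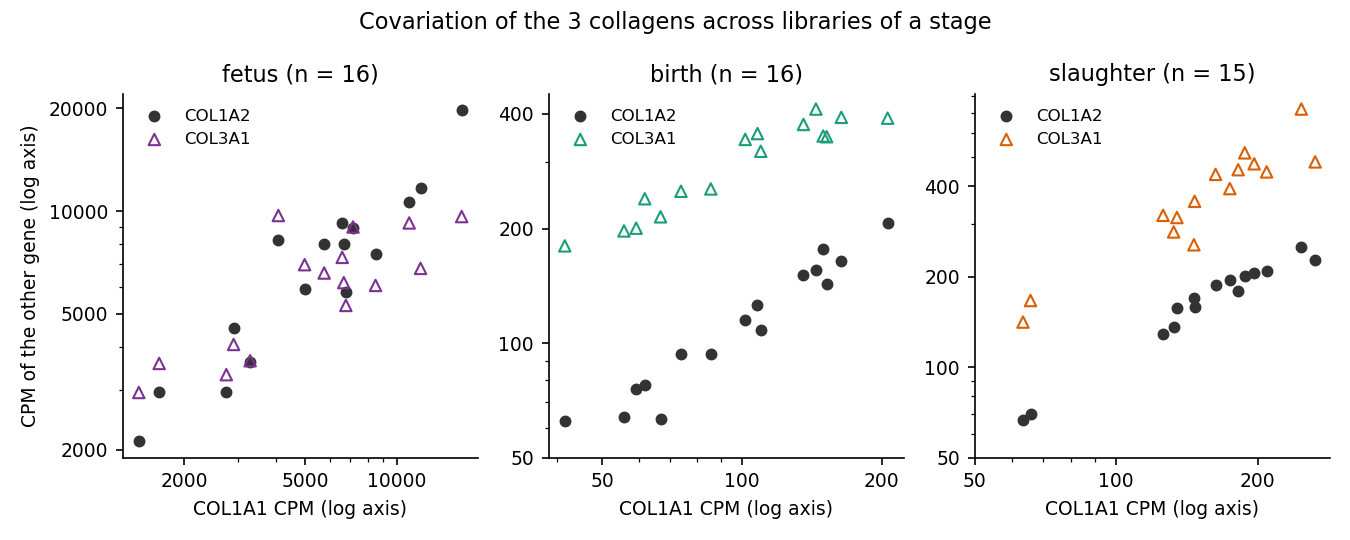
CPM of COL1A2 (filled circles) and COL3A1 (open triangles) against CPM of COL1A1 in the libraries of each stage, on log axes whose ranges differ between panels. Both genes climb with COL1A1 at every stage, and 2 slaughter libraries stand apart at 63.4 and 65.7 CPM of COL1A1.

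Among all genes, the chains of type I collagen were near neighbours in this covariation. Over the 47 libraries, after the mean of each stage and gain group was subtracted, COL1A2 had the highest r with COL1A1 of 11690 other genes (r = 0.964), and the gene with the highest r with COL3A1 was COL1A2 (r = 0.904). Taken stage by stage, COL1A2 held place 1 for COL1A1 at birth and at slaughter and place 2 in the fetus. COL3A1 held place 2 for COL1A1 at birth and place 7 at slaughter, but place 273 in the fetus. These places describe the libraries and carry no test. The 2 other genes most like the 3 collagens, by mean r over 47 libraries among 7518 candidates, were ENSBTAG00000047998 (mean r 0.898) and ENSBTAG00000014665 (mean r 0.876), given by identifier since no symbol could be placed on them. ENSBTAG00000047998 had 2267 ± 752 CPM in the fetus, 108 ± 27.1 at birth and 79.4 ± 20.3 at slaughter (SD, n = 16, 16 and 15). ENSBTAG00000014665 had 73.1 ± 40.7, 13.4 ± 3.13 and 13.9 ± 4.20 CPM. Both were at their highest in the fetus, as the collagens were, which is common among all genes. Of the genes tested, 44% were called lower at birth than in the fetus and 45% lower at slaughter. From birth to slaughter the mean of ENSBTAG00000047998 was lower, while the means of the collagens were higher.

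The summed CPM of the 3 genes was also set against the total count and the number of genes with a count, in 6 correlations chosen after seeing the data. The largest were r = 0.457 with total count at birth (rho 0.518, n = 16, without the 2 farthest libraries 0.407) and r = 0.439 with genes detected in the fetus (rho 0.318, 0.279 without 2). At slaughter r with genes detected was 0.369 (rho 0.404, n = 15) and 0.50 without the 2 farthest libraries. None of the 6 passed, with permutation adjusted p-values of 0.265 or higher for r and 0.259 or higher for rho. Whether a library that was high in collagen at one stage had a same-numbered library high at another was examined over 15 numbers for slaughter and fetus, 7 for birth and fetus and 6 for birth and slaughter. Of 9 correlations none passed adjustment. The lowest unadjusted permutation p was 0.0445, for COL1A1 between slaughter and fetus (r = -0.525, rho = -0.529, adjusted p = 0.400 and 0.410), and r there was -0.262 without the 2 farthest numbers.

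The comparison of LG with MG asked whether slow gain of the F0 heifer in early gestation went with another level of collagen transcripts in her daughters or in her daughters' fetuses. In the fetus, COL1A1 ran from 1421 through a median of 6183 to 10952 CPM in LG and from 1657 through 5827 to 16277 CPM in MG. COL1A2 ran from 2118 through 6659 to 10639 CPM in LG and from 2942 through 8113 to 19754 CPM in MG, and COL3A1 from 2942 through 5674 to 9229 CPM in LG and from 3579 through 6878 to 9702 CPM in MG. The groups overlapped for each gene, with the lowest library in LG and the highest in MG. The log2 fold change of LG over MG was -0.22 for COL1A1 (95% interval -1.10 to 0.66), -0.45 for COL1A2 (-1.19 to 0.29) and -0.30 for COL3A1 (-0.82 to 0.22), with an edgeR adjusted p of 1.00 each. Without fetal MG library 23 the value of COL1A1 was 0.08.

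At birth COL1A1 had a median of 79.9 CPM in LG and 109 CPM in MG, COL1A2 93.9 and 121 CPM, and COL3A1 252 and 346 CPM. The ranges overlapped, with LG COL1A1 at 55.8 to 164 CPM and MG at 41.6 to 206 CPM. For COL3A1, 5 of 8 LG calves lay at 254 CPM or lower, and the rest, libraries 22, 25 and 07, at 349, 392 and 412 CPM. Of the MG calves, 6 of 8 lay at 319 CPM or higher and the other 2, libraries 21 and 17, at 180 and 200 CPM. The highest calf was thus LG and the lowest MG, and these cut points were read from the same values. The log2 fold changes of LG over MG were -0.19 for COL1A1 (95% interval -0.82 to 0.45), -0.26 for COL1A2 (-0.80 to 0.28) and -0.13 for COL3A1 (-0.52 to 0.26), with an edgeR adjusted p of 0.985 each. At slaughter COL1A1 had a median of 149 CPM in LG and 182 CPM in MG, COL1A2 173 and 179 CPM, and COL3A1 357 and 447 CPM. The log2 fold changes there were -0.12 (-0.69 to 0.45), -0.12 (-0.65 to 0.41) and -0.17 (-0.77 to 0.43), with an edgeR adjusted p of 1.00 each. Each group held 1 of the low slaughter libraries, and without LG library 02 the values were 0.0016 for COL1A1 and 0.0014 for COL1A2, while without MG library 32 that of COL3A1 was 0.011.

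No difference between LG and MG was detectable for the collagens at this number of libraries, and over the 9 comparisons the 95% intervals reached from a log2 fold change of -1.19 to one of 0.66. All 9 estimates were below 0, but the 3 genes of a stage move together, so these are not 9 separate observations. Nothing else was called either: edgeR called 0% of 14200 genes in the fetus, of 12485 at birth and of 12577 at slaughter, of which 102, 515 and 230 were under 0.05 before adjustment. DESeq2 also called 0 at each stage (215, 547 and 253 unadjusted), as did limma voom with sample weights (2794, 659 and 365 unadjusted). The ratios between the collagens did not differ past the threshold either, with adjusted p-values of 0.222 to 0.884 from exact permutation tests. The largest was COL1A1 to COL1A2 in the fetus, with a geometric mean of 0.892 in LG and 0.735 in MG (exact p = 0.111, adjusted p = 0.222).

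**Figure D5:**
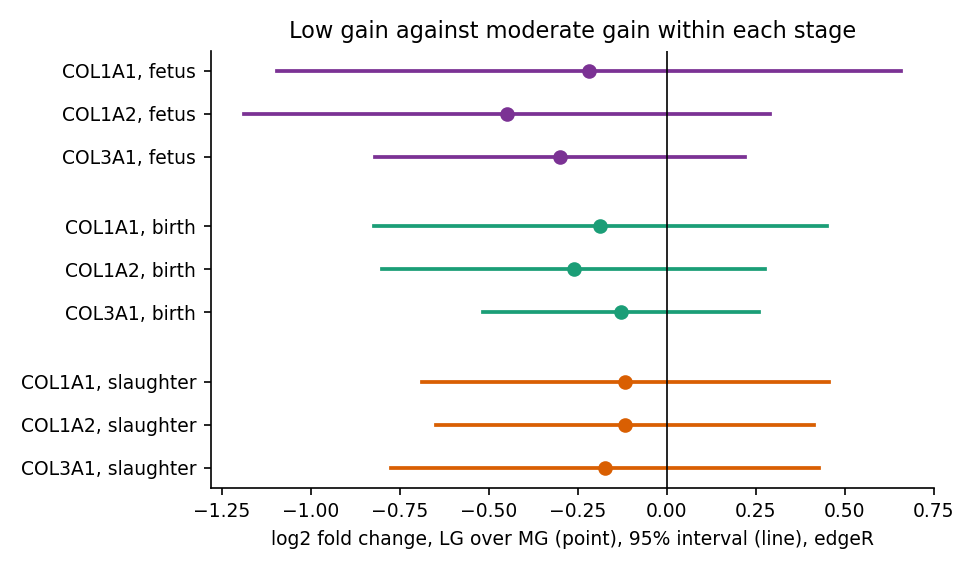
Log2 fold change of LG over MG for each collagen within each stage (point) with its 95% interval (line) from edgeR. Every point lies between -0.45 and -0.12, and every interval crosses 0.

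Whether the LG effect itself changed with stage was tested as an interaction in 1 model of all 47 libraries. Birth minus fetus was 0.09 for COL1A1 (95% interval -0.93 to 1.12), 0.23 for COL1A2 (-0.65 to 1.12) and 0.21 for COL3A1 (-0.52 to 0.94). Slaughter minus fetus was 0.14 (-0.90 to 1.19), 0.36 (-0.54 to 1.27) and 0.15 (-0.59 to 0.88), and slaughter minus birth was 0.05 (-1.0 to 1.10), 0.13 (-0.78 to 1.03) and -0.06 (-0.80 to 0.67). The edgeR adjusted p was 1.00 for each. Of 15264 genes 0% were called in the 3 interactions, and 449, 341 and 468 reached an unadjusted p under 0.05 in that order, while DESeq2 called 2, 1 and 2 genes, none of them a collagen, and limma voom called 0.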

How the data were processed

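Poly(A) RNA was made into libraries that do not mark strand and read in pairs of 150 bp, as the labels' protocols state. Strand therefore cannot tell the reads of a gene from those of an overlapping antisense gene. The authors deposited raw read counts per gene, with 1 table for each stage. Per the submitters' processing notes, STAR 2.7.3a, edgeR 3.24.3, FastQC 0.11.8 and MultiQC 1.9 were used. Build, annotation and read counter: not given in the sources used here. The slaughter table has no header cell over its identifiers, so its sample names were read as starting at the first column of counts. Each library took its group from its labels, and 0 sample columns went unused.

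Tests were run in R 4.3.3 on the counts as deposited. After filterByExpr, which all 3 collagens passed in every fit, and TMM scaling, edgeR 4.0.16 gave robust quasi-likelihood tests, with Benjamini-Hochberg adjustment over all genes tested and a threshold of 0.05. LG was compared with MG in 1 fit per stage, stages with LG and MG weighted alike, and the gain by stage interaction in 1 model. CPM values use TMM over 47 libraries, and log2 CPM a prior count of 0.5. Ratios were tested by permutation, with 100000 resamples between stages and exactly where a group had under 10 libraries (LG against MG). Alternatives were DESeq2 1.42.0, its size factors, limma 3.58.1 voom with sample weights, no filter, 1 model over all libraries, LG or MG alone, the replicate block, leaving out each library and, added after seeing the data, no TMM. The model steps were tested on simulated data. The labels do not say that every number is an animal of its own, and p-values therefore measure only the spread between these libraries, which may be partly technical.

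The 3 genes and the lists were chosen with earlier results of these data known. The naming rule was all 3 collagens, plus the 2 genes without a symbol whose levels were most like theirs, at a mean log2 CPM of at least 3. Lists of 72 matrix genes and 49 cell type markers were not used, as 0 identifiers could be matched to a symbol. No sequence is shown, since no sequence table was used here.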

Additional observations from a re-analysis of the deposited data

Results flagged for a closer look

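In 36 groups of levels and ratios examined, 2 held a library far from the rest of its group, where chance gives about 1 in 20. The ratio of COL1A1 to COL1A2 counts was 1.16 in slaughter LG library 36, while the other 7 LG libraries at slaughter lay between 0.854 and 0.971. This library also had the highest COL1A1 level at slaughter, 265 CPM, and its COL3A1 to COL1A1 ratio of 1.82 was the lowest of the LG libraries there. The ratio of COL3A1 to COL1A1 counts was 2.07 in fetal LG library 22, while the other 7 fetal LG libraries lay between 0.713 and 1.21. That fetus had the lowest level of each of the 3 collagens. A cause was not tested for either library.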

How the results depend on the processing

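The 6 falls from fetus to either F1 stage kept their direction and call under every alternative run, with or without any 1 library. For slaughter against birth, COL1A1 and COL1A2 lost their call in MG libraries alone (0.54 and 0.44). The numbers were not used to pair libraries, because the labels do not say what a number shared between stages marks. Deviations of same-numbered libraries correlated above 0.1 in 1 of 6 pairs for birth and slaughter, 3 of 7 for birth and fetus and 8 of 15 for slaughter and fetus. In each set 1 library correlated best with its own number. The 0.1 cut was not set against libraries of different numbers, and these values cannot tell whether a number marks an animal. With the replicate block the values over the 6 shared numbers were 0.21, 0.19 and -0.061 for COL1A1, COL1A2 and COL3A1 (edgeR adjusted p = 0.426, 0.403 and 0.752), and 0.094, 0.12 and -0.077 over the same libraries without it. The interaction of birth minus fetus for COL1A1 was -0.017 with no TMM, and that of slaughter minus birth for COL3A1 was 0.091 with limma voom; the cause was not tested. Genes called for LG against MG in the fetus were 2 in 1 model over all libraries, and DESeq2 called 2, 2 and 1 genes in the interactions birth minus fetus, slaughter minus birth and slaughter minus fetus. Leaving out 1 library at a time gave 0.25 to 0.44 for COL3A1, slaughter against birth. For LG against MG it gave -0.44 to 0.082 for COL1A1 in the fetus, and at slaughter -0.29 to 0.0016 for COL1A1, -0.26 to 0.0014 for COL1A2 and -0.31 to 0.011 for COL3A1. Log2 ratios moved between 0.18 and 0.26 for COL1A1 to COL1A2, slaughter against fetus. For LG against MG they moved between -0.052 and 0.011 for COL1A1 to COL1A2 at slaughter, -0.060 and 0.11 for COL3A1 to COL1A1 at birth, -0.092 and 0.032 at slaughter, and -0.13 and 0.030 for COL3A1 to COL1A2 at slaughter.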
